A study of Mus musculus with 12 samples.

Results

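The comparison sets TEL-AML1 cells after 7 days with the cytokines IL7 and FLT3L (2 arrays) against the same cells after 5 days (2 arrays), chosen by sample title, and so uses 4 of the series' 12 arrays. The cells are EML1, a mouse haematopoietic progenitor line that was derived from male BDF1 bone marrow with the retroviral vector LRARalpha403SN and so carries that vector in every group. TEL-AML1 was delivered in the lentiviral vector pWPI. The 4 arrays of cells with empty pWPI at day 5 and day 7 were set beside them over the same interval. They are no control for time alone, because stromal signal also differed between their days. The untreated arrays of both vectors (2 each) give the level before treatment and entered the estimate of spread. Per the labels' culture protocol, differentiation was done on confluent OP9 bone marrow stromal cells, in another medium and serum than the maintenance culture, with 10 ng/ml of IL7 and 80 ng/ml of FLT3L. The titles name only the cytokines. Nothing in the labels tells separate cultures from repeat arrays of a culture, so p-values here reflect only how far these arrays spread, possibly for technical reasons.

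TEL-AML1, also called ETV6-RUNX1, joins the repressor ETV6 to the transcription factor RUNX1 and is a fusion of childhood B-precursor leukaemia. IL7 signals through JAK-STAT to early lymphoid cells, and FLT3L acts on multipotent and lymphoid-primed progenitors. Interferons switch on antiviral genes through a promoter element called the ISRE. Dividing cells switch on mitotic genes late in the cycle, many of them through the CHR and CCAAT elements of their promoters.

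Between day 5 and day 7, gene lists of cell division, ribosome assembly and respiration stood lower in TEL-AML1 cells and antiviral interferon genes stood higher, by amounts that were small for single genes. The mitosis list stood lower by a median of 0.29 on the log2(intensity + 16) scale, with all 42 tested members negative, and the interferon list stood higher by a median of 0.20. Over all 12345 genes tested the median was -0.01, and the middle 50% of genes lay between -0.10 and 0.07. No single gene passed the threshold: limma with Benjamini-Hochberg adjustment called 0 genes at an adjusted p under 0.05 (0%), and 989 genes (8.01%) had an unadjusted p under 0.05. Of those, 469 (3.8%) were higher and 520 (4.21%) lower at day 7. The smallest adjusted p was 0.106, shared by Rsad2 and Gpr183. Without the second TEL-AML1 day 7 array, 17 genes were called, 15 higher and 2 lower; day 7 is then a lone array, assumed to vary like the other groups, as in every fit without 1 array. Below, a list is described by how many members had an unadjusted p under 0.05 and by how many had both day 7 arrays outside both day 5 arrays. Over all genes, both day 7 arrays lay above both day 5 arrays for 16.7% and below them for 22.8%. Because no gene was called, every difference below is given as a measured value and none as a change that passed the test. Genes named beyond the 2 of smallest p in their list, Etv6 and Runx1 were chosen after their values were seen.

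Array medians lay between 68.1 and 72.9 in intensity over the 12 arrays, and the 4 compared arrays correlated at 0.979 to 0.992 across genes. The median gap between replicates was 0.102 at day 5 and 0.0976 at day 7 on the log2 scale. Progenitor markers (Kit, Cd34, Ptprc, Spi1, Myb, Gata2) were all above the filter on dim genes, with summed intensities of 8888 and 9162 at day 5 and 9991 and 10003 at day 7. B lineage markers stayed dim: Cd79a was below the filter, and the summed intensity of the measured markers ran from 386 to 505. The sum of the OP9 stromal markers separated the arrays, though not every marker followed it. Their summed intensity, with 10 of 11 markers above the filter and Tagln below it, was 5996 and 2826 at day 5 and 1809 and 3262 at day 7, against 1944 and 1800 in untreated TEL-AML1 cells. The first day 5 array therefore stood apart, and the second day 7 array held more stromal signal than the first. Pdgfrb, a large part of these sums, varied little, with 1241 and 1217 at day 5 and 1066 and 1323 at day 7. Thy1 was dim and stayed between 62.9 and 71.9. These are bulk samples, in which fewer cells of a type and less RNA per cell cannot be told apart. Several results are therefore also given without the first day 5 array or with the stromal level as a covariate.

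**Figure D1:**
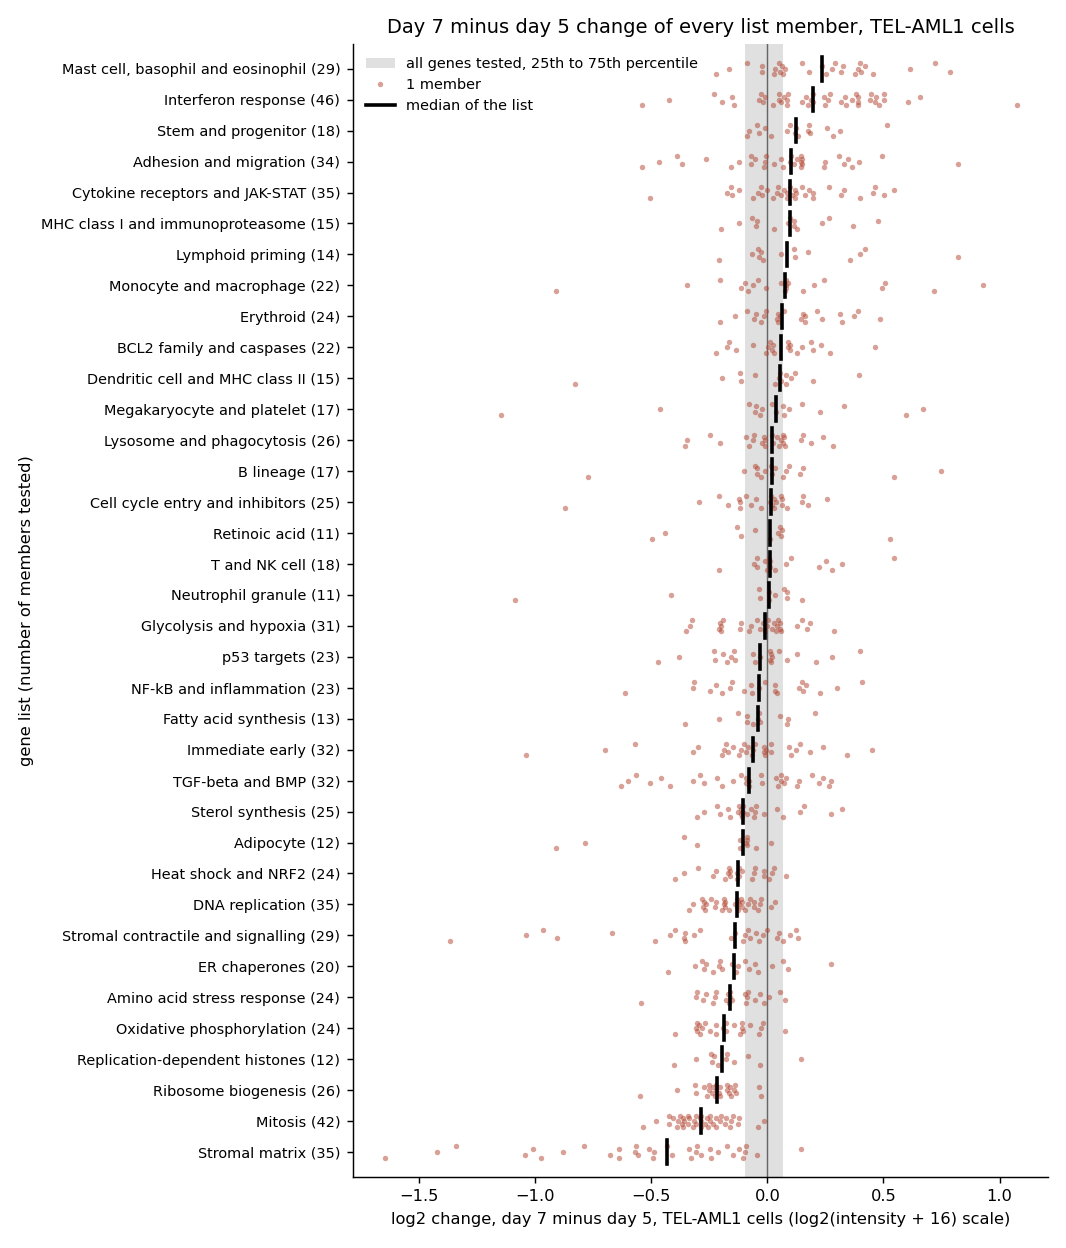
Log2 change from day 5 to day 7 in TEL-AML1 cells (x axis, log2 scale) for every tested member (points) of 36 gene lists (y axis), sorted by median, with a black tick at each median. The grey band spans -0.10 to 0.07, the middle of all genes, and mitosis, ribosome biogenesis and the stromal matrix lie left of it while the mast cell and interferon medians lie right of it.

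The mitosis list holds the machinery of cell division, and its promoters carry the letters of the late cell cycle elements. The CHR letters TTTGAA were found on either strand in 28 of 37 members with a promoter window (75.7%), against 20.2% of all 27025 genes. The letters CCAAT were found in 27 of 37 (73%), against 41.1%. Motifs were searched separately, so a base may count for more than 1 of them, and a match describes the sequence only. Stretches of 5 mitotic promoters are printed, from genes described next that had a TTTGAA match before the start. They are upstream of the RefSeq start (GRCm38.p6), on the gene's strand, 5′ to 3′, with TTTGAA in capitals.
Cdk1, chr10:69352913-69353008, minus strand: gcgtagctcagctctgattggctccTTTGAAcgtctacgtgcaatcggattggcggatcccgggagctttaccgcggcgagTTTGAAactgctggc
Mki67, chr7:135716447-135716520, minus strand: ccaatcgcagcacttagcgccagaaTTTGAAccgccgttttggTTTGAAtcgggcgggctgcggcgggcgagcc
Cdc20, chr4:118437344-118437386, minus strand: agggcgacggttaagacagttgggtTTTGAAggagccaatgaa
Ncapg, chr5:45669870-45669924, plus strand: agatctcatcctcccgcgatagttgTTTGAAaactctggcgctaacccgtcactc
Prc1, chr7:80294421-80294475, plus strand: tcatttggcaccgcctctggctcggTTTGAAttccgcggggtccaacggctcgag

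Of 46 mitosis genes listed, 42 had a usable probe set and passed the filter on dim genes. Of these, 26 had an unadjusted p under 0.05 and were lower at day 7, against 4.21% of all genes, and 0 were higher. For 37 of 42 both day 7 arrays lay below both day 5 arrays, against 22.8% of all genes, and for 0 they lay above. Tpx2, which builds spindle microtubules and activates Aurora A, read 648 and 619 at day 5 and 480.0 and 534 at day 7, a difference of -0.31 ± 0.0772 (standard error). Ccna2, the cyclin of S phase and mitotic entry, read 1355 and 1410.2 at day 5 and 1173 and 1139 at day 7 (-0.25 ± 0.066). In both genes the day 7 arrays lay below the day 5 arrays, with a gap wider than either pair's own spread. These genes had the smallest p-values of the list.

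Among the 16 cyclins, kinases and other mitotic regulators, 11 had an unadjusted p under 0.05, and the median was -0.33. Aurka, the Aurora A kinase, stood at 372 and 312 at day 5 and at 223 and 238 at day 7 (-0.53 ± 0.159), the widest difference of the list. Cdc20, which activates the anaphase-promoting complex, stood at 521 on each day 5 array and at 341 and 401 at day 7. Plk1, the polo-like kinase of mitotic entry, stood at 1055 and 1030.5, then at 738 and 811 (-0.42 ± 0.118). The days did not overlap in any of these. Cdk1, the kinase these cyclins drive, read 1009 and 928 at day 5 and 805 and 838 at day 7 (-0.23 ± 0.106).

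The 26 genes of spindle, kinetochore and cytokinesis had a median of -0.28, with 15 at an unadjusted p under 0.05. Ncapg, a condensin subunit that compacts chromosomes, read 406 and 387 at day 5 and 293 and 326 at day 7. Prc1, which bundles midzone microtubules for cytokinesis, read 457 and 472, then 337 and 379. Neither gene's days overlapped. Mki67, the coat of mitotic chromosomes used as a proliferation marker, differed less, by -0.12 ± 0.0835, with 1457 and 1342 at day 5 and 1270.2 and 1292 at day 7. The smallest difference of this group was that of the condensin ATPase Smc4 (-0.04). In the group of cyclins and kinases it was that of the phosphatase Cdc25b (-0.02). The days overlapped in both genes.

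The mean level of the mitosis list was 9.07 and 9.05 on the day 5 arrays and 8.71 and 8.86 on the day 7 arrays, from 9.32 and 9.31 in untreated TEL-AML1 cells. The lower array at day 7 was the first, which also held the least stromal signal. Without it the median difference was -0.19, and without the second day 7 array -0.37. Without the first day 5 array the median was again -0.29, with 38 of 42 members below on all remaining arrays while 42.1% of all genes were. With the stromal level as a covariate the median was -0.20. The part of stromal RNA in the difference was not tested beyond these values.

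**Figure D2:**
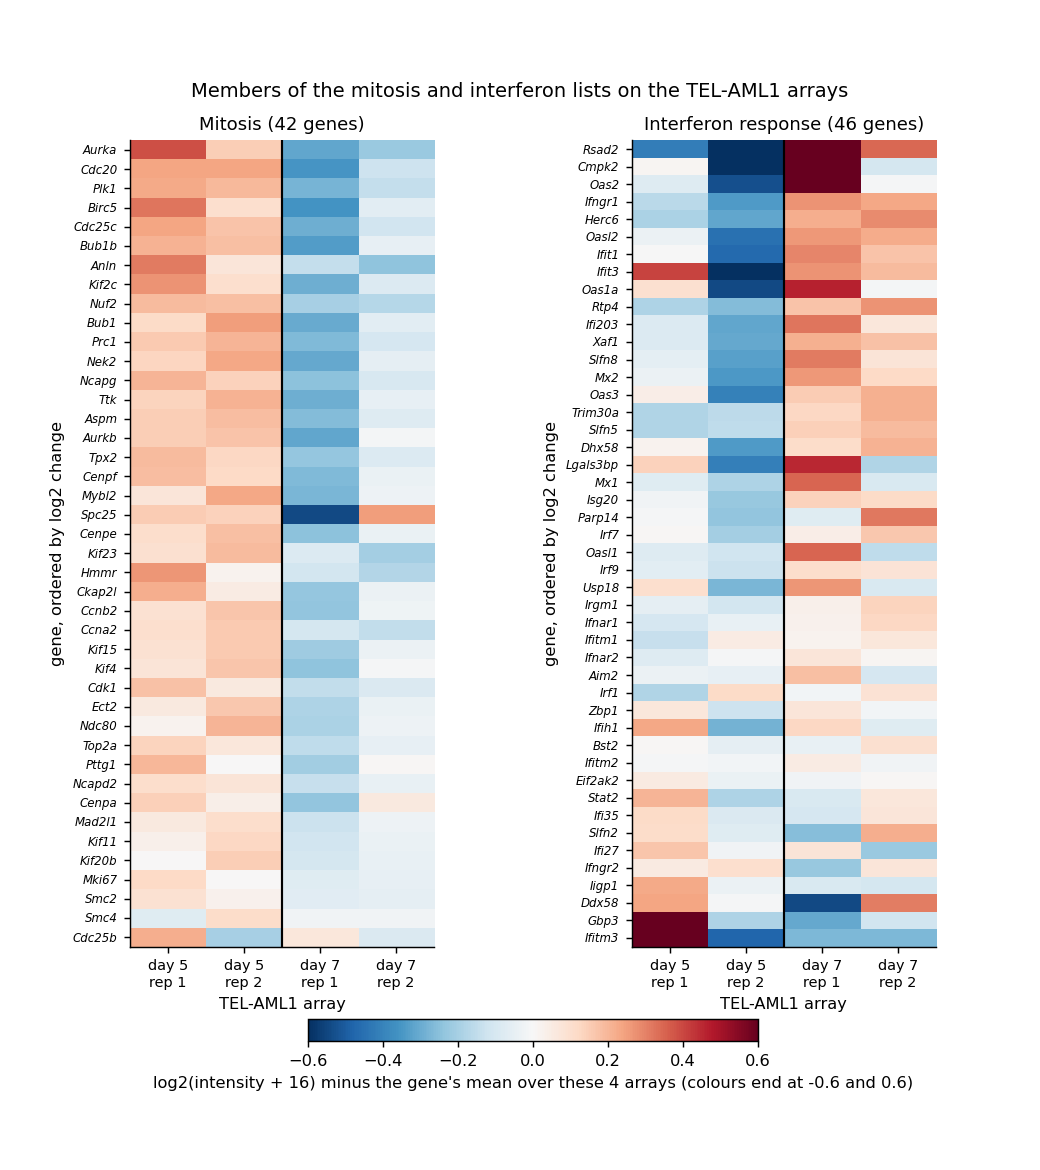
Intensity of 42 mitosis genes and 46 interferon genes (rows) on the 4 TEL-AML1 arrays of day 5 and day 7 (columns), as log2(intensity + 16) minus the gene's mean over the 4 arrays, with the colour scale ending at -0.6 and 0.6. Mitosis genes are above their mean at day 5 and below it at day 7 in most cases, and the interferon block is less even, with some genes highest on the first day 5 array.

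S phase genes stood lower by less. The DNA replication list had a median of -0.13 over 35 tested members. Of these, 2 had an unadjusted p under 0.05, while 8.01% of all genes did. Both day 7 arrays lay below both day 5 arrays for 22 of them (62.9%, against 22.8% of all genes) and above for 0. Tk1, the thymidine kinase of the salvage pathway, read 380.3 and 373 at day 5 and 272 and 328 at day 7 (-0.32 ± 0.126). Mcm10, which starts origin firing, read 526 and 524, then 427 and 437 (-0.27 ± 0.111). The days did not overlap in either. The letters TTTGAA were in 6 of 29 replication promoters (20.7%) and CCAAT in 18 of 29 (62.1%). Among 11 promoters of replication-dependent histones, TTTGAA was in 7 (63.6%) and CCAAT in 10 (90.9%), so neither was seen in mitosis promoters alone. The 12 replication-dependent histone genes had a median of -0.19 and 0 members at an unadjusted p under 0.05, and that median was -0.05 without the first day 5 array, -0.32 without the second and -0.13 with the stromal covariate. Among 25 genes of cycle entry and its inhibitors the median was 0.01. There, Ccnd1, the cyclin of early G1, read 690.2 and 703 at day 5 and 434 and 321 at day 7 (-0.87 ± 0.361). Btg1, an antiproliferative factor, read 453 and 405 at day 5 and 525 and 506 at day 7 (0.26 ± 0.112).

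Genes of ribosome assembly and respiration were lower at day 7 across most of their members. All 26 ribosome biogenesis genes were negative, with a median of -0.21 and 8 at an unadjusted p under 0.05, against 8.01% of all genes. For 22 (84.6%) both day 7 arrays lay below both day 5 arrays, against 22.8% of all genes. Nhp2, a core protein of the particles that modify ribosomal RNA, read 644 and 712 at day 5 and 416 and 502 at day 7 (-0.55 ± 0.159). Utp20, of the small-subunit processome, read 419 and 417, then 353 and 351 (-0.24 ± 0.0793). The list's mean level was 9.40 and 9.41 at day 5 and 9.19 and 9.18 at day 7, with replicates much closer to each other than the days were. Untreated TEL-AML1 cells were at 9.46 and 9.45, near the day 5 level. With the stromal level as a covariate the median was -0.13.

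Of 24 oxidative phosphorylation genes, 7 had an unadjusted p under 0.05 and were lower at day 7, against 4.21% of all genes. On both arrays 20 lay below (83.3%, against 22.8% of all genes) and 1 above, with a median of -0.19. Sdhb, the iron-sulphur subunit of succinate dehydrogenase, read 765 and 813 at day 5 and 644 and 639 at day 7 (-0.29 ± 0.0887). Ndufb8, of complex I, read 394 and 344, then 313 and 303 (-0.25 ± 0.0787). In both, each day 7 array was below each day 5 array. The list's mean level moved from 9.82 and 9.78 to 9.59 and 9.65. With the stromal covariate its median was -0.10, a smaller value by more than 1.5 times.

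Biosynthetic and stress lists lay on the same side with fewer members apart. The amino acid stress list (ATF4 targets) had a median of -0.16, with 2 of 24 members at an unadjusted p under 0.05, near the 8.01% of all genes. In the list 11 members (45.8%) lay below on both arrays, against 22.8% of all genes. Its mitochondrial folate enzyme Mthfd2 had the third smallest p of all genes and read 457 and 489.7 at day 5 and 349.7 and 292 at day 7 (-0.54 ± 0.0931). It had stood at 806 and 832 in untreated cells, so both days were below that level. Psph, the last enzyme of serine synthesis, read 156 and 162 at day 5 and 118 and 140.3 at day 7. The 20 ER chaperones had a median of -0.14, which was -0.09 without the second day 5 array and -0.08 with the stromal covariate. The 24 heat shock and NRF2 genes had a median of -0.13, which was -0.08 without the first day 5 array and -0.04 with the covariate. The 31 glycolysis and hypoxia genes were centred at -0.01.

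Antiviral interferon genes stood higher at day 7. The ISRE letters, GAAA, any 2 bases and GAAA again, were found on either strand in 18 of 36 interferon list members with a promoter window (50%), against 3.99% of all genes. The MHC class I and immunoproteasome list had them in 4 of 12 (33.3%). Promoter stretches of 4 members whose values follow are given from the same RefSeq table, with the match, or its complement where it lies on the other strand, in capitals.
Rsad2, chr12:26456538-26456597, minus strand: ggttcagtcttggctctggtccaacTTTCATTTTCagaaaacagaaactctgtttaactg
Slfn5, chr11:82951922-82951981, plus strand: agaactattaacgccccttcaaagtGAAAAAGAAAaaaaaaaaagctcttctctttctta
Trim30a, chr7:104465195-104465254, minus strand: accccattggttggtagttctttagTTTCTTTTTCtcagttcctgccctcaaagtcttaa
Oas3, chr5:120777700-120777759, minus strand: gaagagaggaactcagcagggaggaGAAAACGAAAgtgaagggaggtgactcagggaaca

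Of 58 interferon genes listed, 51 had a usable probe set and 46 passed the filter. Of these, 15 had an unadjusted p under 0.05 and were higher at day 7, against 3.8% of all genes, and 0 were lower. For 21 of 46 both day 7 arrays lay above both day 5 arrays, against 16.7% of all genes, and for 1 they lay below. Rsad2, the antiviral enzyme viperin, read 181 and 151 at day 5 and 421 and 318 at day 7, from 69.7 and 66.2 in untreated cells. Its day 7 arrays lay above its day 5 arrays by more than either pair's spread. The difference was 1.07 ± 0.133, a 2.11-fold higher level, with the smallest p of all genes (adjusted p = 0.106 by limma with Benjamini-Hochberg adjustment). On the log2(intensity + 16) scale it was the only gene of the 12345 tested to stand over 2-fold higher at day 7, while 16 stood over 2-fold lower. Of those 16, 7 belong to the stromal lists, the days overlapped in all 16, and 0 were over 2-fold lower without the first day 5 array. Over 1.5-fold, 29 genes were higher and 83 lower. Without the second day 7 array Rsad2 was 1.27 with an adjusted p of 0.0263, and over the 17 alternatives its adjusted p by limma ran from 0.0263 to 0.657, under 0.05 in 1 of them.

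The effectors of the antiviral state, 33 of the 46, had a median of 0.27, with 13 at an unadjusted p under 0.05. Herc6, a ubiquitin ligase of this response, read 215 and 196 at day 5 and 290.5 and 304 at day 7 (0.50 ± 0.0993). Slfn5, a Schlafen family member, read 449.7 and 459, then 567 and 585 (0.33 ± 0.0684). Trim30a, a tripartite motif protein, read 1496 and 1524, then 1853 and 1975. In these 3 genes the days stood clear of each other. Oas3, an oligoadenylate synthetase that senses double-stranded RNA, read 358 and 259 at day 5 and 389 and 406 at day 7, so its second day 5 array was the low one. Genes of the Oas, Ifit, Slfn and Trim30 families have close relatives whose RNA can reach the same probes.

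Some effectors were brightest on the first day 5 array, the one with the most stromal signal. Of the 33 effectors, 26 had a positive difference and 7 a negative one, Ifitm3 and Gbp3 among the 7. Ifitm3, a membrane protein that blocks virus entry, read 1736 and 606 at day 5 and 701 and 702 at day 7 (-0.54 ± 0.4). Gbp3, a guanylate-binding protein, read 109 and 56.1 at day 5 and 50.2 and 59.7 at day 7. Ifit3, an RNA-binding effector, read 349 and 135, then 316 and 299, with a higher mean at day 7 (0.46 ± 0.335). In each, the first day 5 array was the highest of the 4. The second lay at or below the day 7 level in Ifitm3 and Ifit3. Without the first day 5 array, 34 of the 46 genes lay above on both day 7 arrays and 3 below, while 28.1% of all genes lay above, and the list's median was 0.31. With the stromal covariate the median was 0.24. Leaving out each compared array in turn gave list medians from 0.14 to 0.31, so the value fell as well as rose. The part of stromal RNA in these genes was not tested beyond these values.

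The 13 sensors and signalling genes of the list had a median of 0.08, with 2 at an unadjusted p under 0.05, against 8.01% of all genes. On both arrays 6 lay above (46.2%, against 16.7% of all genes). Ifngr1, a chain of the type II interferon receptor, read 559 and 492 at day 5 and 759.8 and 738 at day 7 (0.50 ± 0.122). Irf7, the factor that amplifies type I interferon, read 895 and 769.8 at day 5 and 914 and 996 at day 7 (0.20 ± 0.0967). The mean level of the whole interferon list was 7.23 and 7.21 in untreated cells, 8.85 and 8.58 at day 5 and 8.95 and 8.89 at day 7. Most of the gap to untreated cells was therefore present at day 5. The 15 MHC class I and immunoproteasome genes had a median of 0.10, with 6 above on both arrays (40%, against 16.7% of all genes) and 1 below. That median was 0.06 without the second day 5 array and 0.04 without the second day 7 array. Nlrc5, the transactivator of MHC class I genes, read 261 and 273 at day 5 and 355 and 404 at day 7 (0.48 ± 0.101). Tap1, which carries peptides to class I molecules, read 548 and 487, then 574 and 677 (0.26 ± 0.106). The 5 immunoproteasome genes had a median of -0.07.

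**Figure D3:**
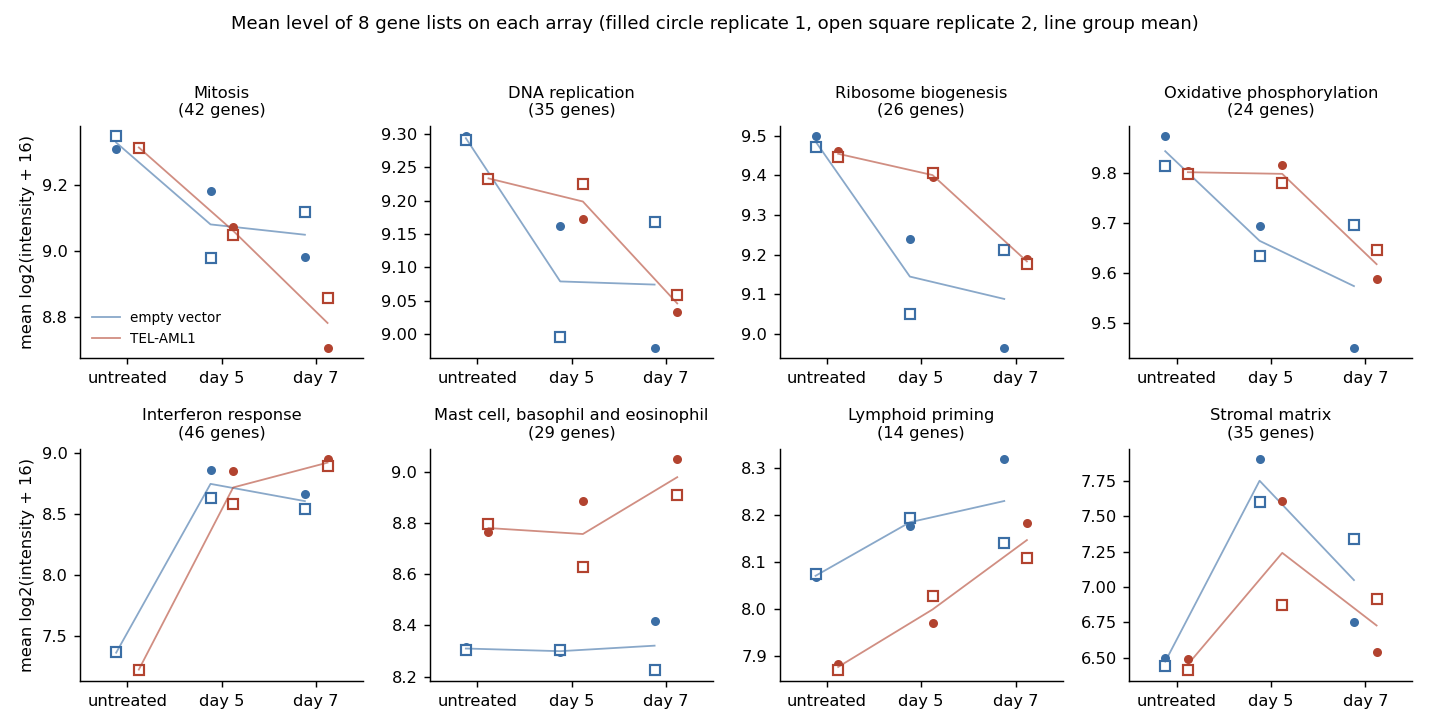
Mean log2(intensity + 16) of 8 gene lists (panels, y axis) on each of the 12 arrays, with empty vector and TEL-AML1 arrays at untreated, day 5 and day 7 along the x axis. The interferon mean goes from 7.23 and 7.21 in untreated TEL-AML1 cells to 8.95 and 8.89 at day 7, and the mitosis mean goes from 9.32 and 9.31 to 8.71 and 8.86.

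Mast cell, basophil and eosinophil genes had the highest median of the 36 lists, 0.23 over 29 tested members. Of these, 7 had an unadjusted p under 0.05, against 8.01% of all genes. For 15 both day 7 arrays lay above both day 5 arrays (51.7%, against 16.7% of all genes) and for 3 below (10.3%, against 22.8%). Among the receptors, Csf2rb, the beta chain shared by the IL3, IL5 and GM-CSF receptors, read 1613 and 1496 at day 5 and 1875 and 2002 at day 7 (0.32 ± 0.0938). Its close relative Csf2rb2, which serves IL3 alone, read 1533 and 1272, then 1775 and 1919.8 (0.40 ± 0.0908). The copies are similar enough that their probes may share signal. Both stood clear of day 5. The 9 receptor genes had a median of 0.29 and the 10 proteases 0.26.

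Several granule genes had replicates far apart. Ms4a2, a chain of the IgE receptor, read 454 and 187 at day 5 and 599 and 446 at day 7 (0.79 ± 0.326). Hdc, which makes histamine, read 954 and 417, then 1167 and 817, and Mcpt4, a chymase, read 2227 and 803, then 2499 and 1130.4. In all 3 the first array of each day was the higher. Gzmb, the granzyme B protease, was tighter, with 2636 and 2520.0 at day 5 and 3113 and 3027 at day 7 (0.25 ± 0.0774). Cpa3, the mast cell carboxypeptidase, was bright and level at 0.06 ± 0.0911. The summed mast cell markers were 7072 and 5333 at day 5 and 7794 and 6610 at day 7, overlapping between days, with 5 of 6 above the filter and Fcer1a below it. The list's median was 0.09 without the second day 5 array, 0.10 without the first day 7 array and 0.14 with the stromal covariate.

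Cytokine receptor and JAK-STAT genes, which include IL7 signalling parts, had a median of 0.10 over 35 members. On both arrays 10 lay above (28.6%, against 16.7% of all genes) and 3 below (8.57%, against 22.8%). Jak2, the kinase of the beta chain receptors, read 719.5 and 668 at day 5 and 904 and 846 at day 7 (0.33 ± 0.115). Id1, an inhibitor of E proteins, was lower, with 129 and 106 at day 5 and 70.3 and 85.9 at day 7 (-0.50 ± 0.165). Il7r, the receptor chain for the cytokine added, was dim on 3 arrays (64.6 and 53.7 at day 5, 52.4 on the second day 7 array) and read 159 on the first day 7 array. Adhesion and migration genes also had a median of 0.10, over 34 members, which was 0.02 without the first day 7 array. On both arrays 10 lay above (29.4%, against 16.7% of all genes) and 5 below (14.7%, against 22.8%).

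Myeloid, erythroid and platelet lists had medians of 0.08 or less, and single members stood further apart. Ccr2, the monocyte chemokine receptor, read 359 and 354 at day 5 and 457 and 567 at day 7 (0.50 ± 0.0995). Ms4a6b, of the same membrane family as Ms4a2, read 218 and 156, then 471 and 285 (0.93 ± 0.2). Their list of 22 monocyte and macrophage genes had a median of 0.08, which was 0.04 without the first day 7 array. Of its members 8 (36.4%, against 16.7% of all genes) lay above on both arrays while 3 lay below. Alas2, the erythroid enzyme that starts haem synthesis, read 61.7 and 59.7 at day 5 and 119 and 69.5 at day 7. Ppbp, a platelet chemokine, read 256 and 247, then 589.7 and 283, and in both genes the first day 7 array carried the gap. Pf4, another platelet chemokine, was lower instead, at 1134 and 759, then 652 and 689 (-0.46 ± 0.163). That value was -0.18 without the first day 5 array and -0.27 with the stromal covariate. The 24 erythroid genes had a median of 0.06 and the 17 megakaryocyte genes 0.04. The erythroid median was 0.22 without the first day 5 array, -0.03 without the second, -0.04 without the first day 7 array and 0.09 with the covariate.

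Lymphoid priming and progenitor lists stood slightly higher at day 7, and the B lineage list had a median near 0. The mean level of the lymphoid priming list was 7.97 and 8.03 at day 5 and 8.18 and 8.11 at day 7, and that of the stem and progenitor list was 9.03 and 9.08, then 9.20 and 9.15. The days did not overlap in either list mean. Gpr183, an oxysterol receptor that positions B cells, read 278 on each day 5 array and 485 and 521 at day 7, from 229 and 206 in untreated cells. The difference was 0.82 ± 0.109, with an adjusted p of 0.106 by limma with Benjamini-Hochberg adjustment, and it lay far outside the gap between replicates. With a pseudocount of 64 in place of 16 it was 0.73 with an adjusted p of 0.0382, the 1 call for this gene among 17 alternatives, over which its adjusted p by limma ran from 0.0382 to 0.727. Sox4, a transcription factor needed for early B cells, read 549.6 and 516 at day 5 and 697 and 719 at day 7 (0.40 ± 0.118). Both belong to the lymphoid priming list, whose 14 tested members had a median of 0.08, with 7 above on both arrays (50%, against 16.7% of all genes) and 1 below. Without the first day 7 array that median was 0.05, without the second 0.15, and with no filter on dim genes 0.02. Dntt of the same list, the terminal transferase that adds bases at V(D)J joints, stayed between 44.9 and 52.0 on the 4 TEL-AML1 arrays, under the filter value of 59.9, which applies to a gene's mean over all 12 arrays. On the empty vector arrays it read 161 and 145 at day 5 and 235 and 119.9 at day 7.

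Of 17 B lineage genes tested, 1 had an unadjusted limma p under 0.05, while 8.01% of all genes did, and the median was 0.02. That gene was Cd93, a surface glycoprotein of early B cells and other progenitors, with 263 and 260.0 at day 5 and 520.2 and 388 at day 7 (0.75 ± 0.203). Ebf1, a master factor of the B lineage, read 199.8 and 76.8 at day 5 and 49.2 and 89.6 at day 7, in the same array order as the summed stromal markers, and the part of stromal RNA in it was not tested. Pax5 stayed between 53.6 and 63.9. Of 18 stem and progenitor genes 6 lay above on both arrays (33.3%, against 16.7% of all genes) and 0 below. Their median was 0.12, which was 0.04 without the first day 5 array, 0.06 with the stromal covariate and 0.02 with no filter. Angpt1, a niche ligand, read 470.5 and 401 at day 5 and 629 and 628 at day 7 (0.52 ± 0.183). Gata2, a stem cell and mast cell factor, read 1568 and 1241, then 1813 and 1659 (0.31 ± 0.117). Runx1 read 1417 and 1670.2 at day 5 and 1808 and 1874 at day 7 (0.26 ± 0.106), and Etv6 differed by 0.09 ± 0.082. Without the first day 5 array Runx1 differed by 0.14 and Etv6 by 0.009. With the stromal covariate these were 0.11 for Runx1 and 0.012 for Etv6. Whether their probe sets also measure the fusion is not stated in the labels or files.

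**Figure D4:**
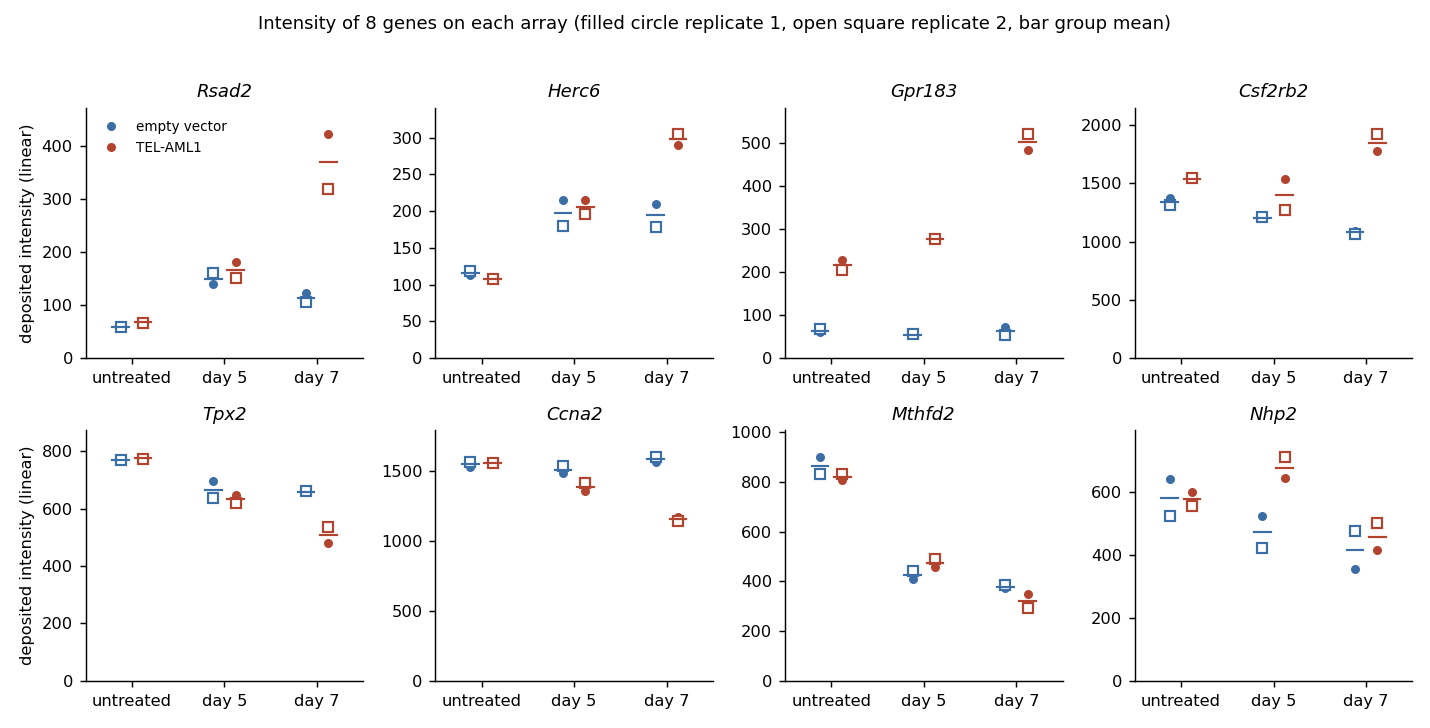
Intensity (y axis) of Rsad2, Herc6, Gpr183, Csf2rb2, Tpx2, Ccna2, Mthfd2 and Nhp2 on each of the 12 arrays, grouped by vector and condition along the x axis. In TEL-AML1 cells the day 7 points of Rsad2 (421 and 318) lie above those of day 5 (181 and 151), and those of Ccna2 (1173 and 1139) lie below (1355 and 1410.2).

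Stromal matrix genes had the lowest median of the 36 lists, with replicates far apart. Over 35 members it was -0.43. On both arrays 14 lay below (40%, against 22.8% of all genes), and 4 had an unadjusted p under 0.05, against 8.01% of all genes. Bgn, the matrix proteoglycan biglycan, read 884 and 257 at day 5 and 88.3 and 311 at day 7, and Fn1, fibronectin, read 1909.8 and 560.4, then 131 and 755. The days overlapped in both. Col4a1, a basement membrane collagen that was dim throughout, read 101 on each day 5 array and 81.6 and 83.9 at day 7 (-0.25 ± 0.0908). The matrix median was -0.12 without the first day 5 array and -0.79 without the second.

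The 29 stromal contractile and signalling genes had a median of -0.14. Both day 7 arrays lay below both day 5 arrays for 7 of them (24.1%), near the 22.8% of all genes, and above for 1. The list's median was -0.05 without the first day 5 array and -0.32 without the second. The remaining lists had medians between -0.10 and 0.06. They cover adipocyte, neutrophil granule, dendritic and T cell genes, p53 targets, BCL2 family, NF-kB, immediate early, TGF-beta, retinoic acid, lysosome, and sterol and fatty acid synthesis. Bcl2l11, which encodes the death activator BIM, read 232 and 292 at day 5 and 336 and 397 at day 7 (0.46 ± 0.142). Mylip, which degrades the LDL receptor, read 332 and 333, then 399.9 and 440.2 (0.32 ± 0.0862). Ier3, an early response survival gene, read 502 and 574, then 739.9 and 739 (0.45 ± 0.105). Dhrs3, which converts retinal to retinol, read 290.4 and 299, then 429.7 and 433 (0.53 ± 0.221). In these 4 genes the day 7 arrays lay above the day 5 arrays.

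Cells with the empty vector were set beside TEL-AML1 cells over the same interval, and the difference between the vectors was tested in the same limma fit. With the empty vector, 0 genes were called and 794 (6.43%) had an unadjusted p under 0.05. Without its second day 7 array, 70 were called. For the difference itself 0 genes were called and 425 (3.44%) had an unadjusted p under 0.05, with a smallest adjusted p of 0.219 (Rsad2). Without the second empty vector day 7 array, 1 gene was called. With same-numbered arrays of the vectors blocked in each condition, 0 were called and 879 had an unadjusted p under 0.05. Across the 12345 genes, which are not independent replicates, the changes in the vectors correlated at 0.5305, and each vector's day 5 arrays held more stromal signal than its first day 7 array (empty vector sums of 6789 and 5029 at day 5 and 1826 and 4108 at day 7).

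The mitosis list had a median of -0.02 with the empty vector, where 3 members lay above on both day 7 arrays (12.1% of all genes did) and 2 below (13%). The median of its 42 differences between vectors was -0.28, and 11 had an unadjusted p under 0.05, against 3.44% of all genes. Ccna2 read 1482 and 1535 at day 5 and 1565 and 1598 at day 7 with the empty vector, and its difference was -0.32 ± 0.0933. Plk1 read 1135 and 1024, then 917 and 1215, so its days overlapped there. The list's mean level with the empty vector was 9.18 and 8.98 at day 5 and 8.98 and 9.12 at day 7, overlapping between days. For DNA replication the empty vector median was 0.00 and for ribosome biogenesis -0.05. The oxidative phosphorylation list was less far apart, with -0.11 against -0.19. Stromal matrix genes were lower with both vectors, with a median of -0.64 with the empty vector against -0.43 with TEL-AML1. With the empty vector 30 of 35 lay below on both arrays, while 13% of all genes did. With the stromal covariate 0 genes were called for the difference between vectors. The part of stromal RNA in that difference was not tested further.

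**Figure D5:**
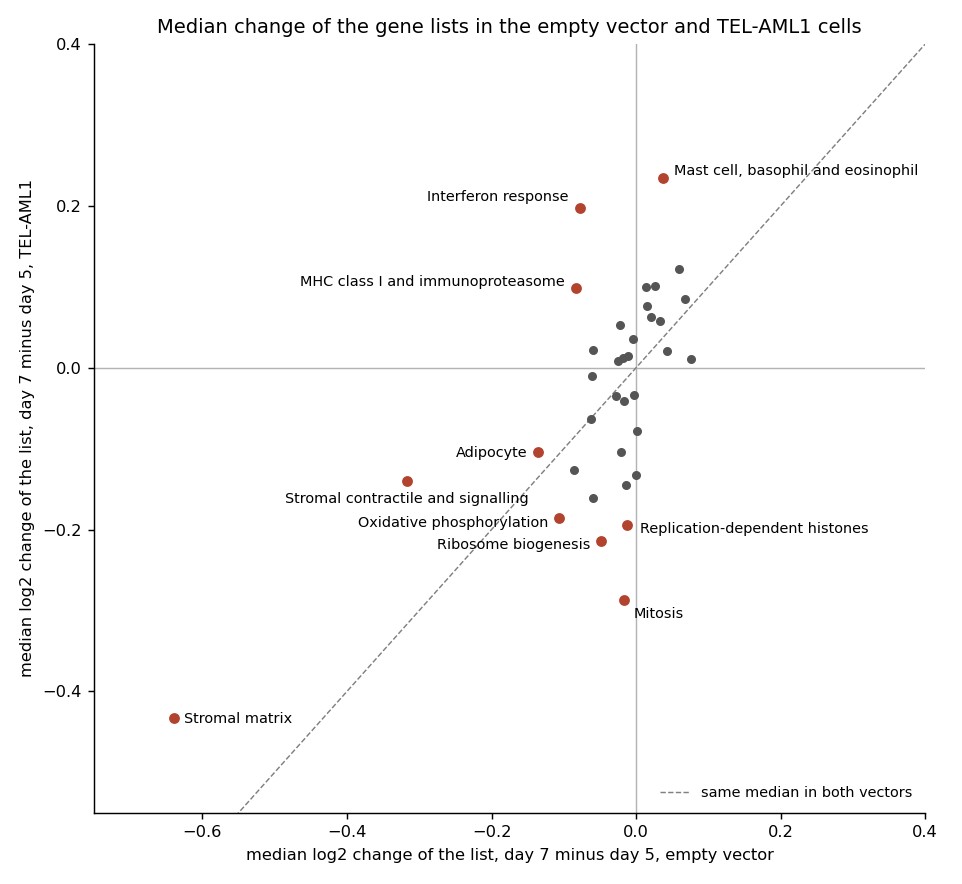
Median log2 change from day 5 to day 7 of each of the 36 gene lists in TEL-AML1 cells (y axis) against the same with the empty vector (x axis), with a dashed line where the values are equal. Mitosis (-0.29 against -0.02) lies below the line, interferon (0.20 against -0.08) above it, and the stromal matrix is low on both axes.

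The interferon list stood lower with the empty vector, by a median of -0.08. Of its 46 members 14 lay below on both arrays (13% of all genes did) and 2 above (12.1%). Its differences between vectors had a median of 0.29, and 12 of 46 had an unadjusted p under 0.05, against 3.44% of all genes. Rsad2 read 139 and 159 at day 5 and 123 and 105 at day 7 with the empty vector. Its difference between vectors was 1.42 ± 0.189 (adjusted p = 0.219 by limma with Benjamini-Hochberg adjustment). Ifit3 read 489 and 342, then 131 and 201, against 349 and 135, then 316 and 299, with TEL-AML1. The mean level of the list was 8.86 and 8.63 at day 5 and 8.66 and 8.54 at day 7 with the empty vector, overlapping between days. At day 5 it was thus 8.85 and 8.58 with TEL-AML1 and nearly the same without it.

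Mast cell genes had a median of 0.04 with the empty vector. The difference between vectors had a median of 0.16, with 4 of 29 at an unadjusted p under 0.05, against 3.44% of all genes. Csf2rb2 read 1202 and 1209.9 at day 5 and 1091 and 1069 at day 7 with the empty vector (difference 0.56 ± 0.128). Csf2rb read 1191 and 1448, then 1082 and 1115 (difference 0.57 ± 0.133). For these genes the empty vector arrays were lower at day 7 and the TEL-AML1 arrays higher. Over all 12345 genes tested, the vectors' day 7 arrays lay on opposite sides of day 5 for 332 (2.69%). Lymphoid priming genes had a median of 0.07 with the empty vector, where 1 of 14 lay above on both arrays, while 12.1% of all genes did. Their differences between vectors had a median of 0.08, with 3 of 14 at an unadjusted p under 0.05, against 3.44% of all genes. Gpr183 was dim there, at 53.8 and 56.2 at day 5 and 73.5 and 54.8 at day 7, and its difference between vectors was 0.65 ± 0.154 with an unadjusted limma p of 0.00158 and an adjusted p of 0.999.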

How the data were processed

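RNA of 12 Affymetrix arrays, 2 for each of 6 groups, was analysed, with groups and replicate numbers from the sample titles. The deposited values are linear intensities per probe set. The authors' background correction, summarisation and normalization are not stated in the labels or files, and the values were kept as deposited. Of 35556 probe sets, 21218 name 1 gene, 1881 several and 12457 are not listed by the platform annotation; only the first kind was named. The brightest probe set stood for its gene, and genes over the 40th percentile (59.9) were kept, leaving 12345. Values were taken as log2(intensity + 16), which understates differences of dim genes.

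All 12 arrays were fitted with limma 3.58.1 (lmFit and eBayes, R 4.3.3), with a mean per group and Benjamini-Hochberg adjustment at 0.05; the code was tested on simulated data. Arrays have no read depth, and their number limits the precision. The 36 gene lists (1036 genes: 102 without a usable probe set, 129 below the filter, 805 tested) and the members were chosen with earlier results of these data known. Lists were described by counts and medians, with no test of their own.

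Named genes were, in each list, the called members of smallest p or, with fewer than 2 called, the 2 members of smallest p. The highest and lowest changes among called genes (none here), Etv6, Runx1 and the 10 genes of smallest p in the difference between vectors were added. Part of these is given, and others are named as chosen after their values were seen. Promoter windows were those of the RefSeq table, 300 bases around each start and mostly before it. Alternatives were quantile normalization, centring on array medians, other filters and pseudocounts, averaging probe sets per gene, a trended variance, array weights, only the compared groups, a replicate block, a stromal covariate and leaving out each array.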

Additional observations from a re-analysis of the deposited data

Results flagged for a closer look

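In 4 of 36 gene lists and 15 of the 76 genes chosen by rule the vectors went opposite ways from day 5 to day 7 on every array: both TEL-AML1 day 7 arrays lay on one side of both day 5 arrays, and both empty vector day 7 arrays on the other side of theirs. Over all 12345 genes tested, 332 (2.69%) did so. As a difference of changes, TEL-AML1 minus empty vector on the log2(intensity + 16) scale, the mean levels of the lists differed by 0.16 for monocyte and macrophage genes, 0.21 for MHC class I and immunoproteasome genes, 0.13 for cytokine receptor and JAK-STAT genes and 0.13 for adhesion and migration genes. These list differences were not tested.

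For the genes the difference was tested in the limma fit, and none passed after Benjamini-Hochberg adjustment (adjusted p from 0.219 to 0.999). Higher with TEL-AML1 and lower with the empty vector were the antiviral gene Rsad2 (1.42), the chemokine receptor Ccr2 (0.84), the early B cell glycoprotein Cd93 (0.91) and the IL3 receptor chains Csf2rb (0.57) and Csf2rb2 (0.56). The same held for the ATP-gated channel P2rx4 (0.75), the kinase Dyrk1b (0.69), the SLAM receptor Cd84 (0.62), the antiproliferative factor Btg1 (0.57), the tubulin Tubb2b (0.56) and the ubiquitin ligase Mylip (0.55). Lower with TEL-AML1 and higher with the empty vector were Mpv17l2 of the mitochondrial ribosome (-0.53), Ndufb8 of respiratory complex I (-0.42), the cyclin Ccna2 (-0.32) and glutathione reductase Gsr (-0.21). All 15 were chosen for a small p in this difference or in their list, so their direction and their share of the chosen genes are descriptions.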

How the results depend on the processing

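The count of called genes for TEL-AML1 day 7 against day 5 was 0 under every alternative but 2: with a pseudocount of 64 it was 1 (Gpr183), and without single arrays it ran from 0 to 17, the 17 without the second day 7 array. For the empty vector it ran from 0 to 70 and for the difference between vectors from 0 to 1 when single arrays were left out, the 70 and the 1 without the second empty vector day 7 array. Deviations of same-numbered TEL-AML1 arrays of the days had only a weak negative correlation (r = -0.1153 across genes). Whether the numbers link arrays of the days is not stated in the labels. With the replicate block within each vector, 0 genes were called in each comparison (824, 623 and 359 at an unadjusted p under 0.05), and crossed between the days, an alternative added after the data were seen, 0 (805). Same-numbered arrays of the vectors deviated together in each condition (r from 0.378 to 0.5428), and that block also called 0.

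The medians of the mitosis, DNA replication, ribosome biogenesis, oxidative phosphorylation, interferon, mast cell and lymphoid priming lists kept their sign in all 17 settings. With the stromal covariate, mitosis was -0.20, DNA replication -0.10, ribosome biogenesis -0.13 and oxidative phosphorylation -0.10. Ribosome biogenesis was -0.22 centred on array medians, -0.22 with the filter at the 60th percentile and -0.19 with a pseudocount of 64, and lymphoid priming was 0.020 with no filter. Leaving out single arrays gave -0.37 to -0.19 for mitosis, -0.17 to -0.11 for DNA replication, -0.24 to -0.20 for ribosome biogenesis, -0.22 to -0.14 for oxidative phosphorylation and 0.054 to 0.15 for lymphoid priming. For interferon genes it gave 0.14 to 0.31 and for mast cell genes 0.088 to 0.28. The cause of these shifts was not tested. Genes near background, such as Dntt and Pax5, have no usable order between arrays.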

Other observations

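Outside the lists, some genes stood apart between the days; they were chosen after their values were seen, and limma called none of them. Cda, the cytidine deaminase of pyrimidine salvage, read 968 and 1043 at day 5 and 457 and 693 at day 7 in TEL-AML1 cells (-0.82 ± 0.17), while the empty vector arrays of these days read 67.1 to 82.2. Ypel3, a gene linked to growth arrest, read 200.1 and 181, then 311 and 324 (0.69 ± 0.129). Ccl9, a myeloid chemokine, read 471 and 367, then 902 and 610.0 (0.81 ± 0.235). Prkcq, the protein kinase C theta of T cell signalling, read 133 and 111, then 172 and 168 (0.43 ± 0.0859). In all 4 genes the day 7 arrays of TEL-AML1 cells lay outside the day 5 arrays.

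Without the second TEL-AML1 day 7 array, day 7 is 1 array assumed to vary like the other groups, and the 17 called genes then included the cytokine receptor genes Il7r (1.22) and Il31ra (1.01) and the cytokine gene Il13 (0.76). On the array left out Il7r read 52.4, level with day 5 (64.6 and 53.7), against 159 on the other day 7 array, so its call rests on that 1 array.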
